A study of Mus musculus with 9 samples.

Results

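The 9 genes described here carry glucose, lactate and glutamine through the cell: the glucose transporters Slc2a1 and Slc2a3, the hexokinases Hk1 and Hk2, the glycolytic enzymes Gapdh and Pkm, the lactate dehydrogenase subunit Ldha, the lactate and pyruvate transporter Slc16a1, and the glutamine transporter Slc1a5. They were chosen by name, as 9 of 21887 protein-coding genes with a position in RefSeq's GRCm38.p6 annotation. Chromatin came from the thymus of C57BL/6J mice with T-cell lymphoma driven by MYCN, and no untreated or normal thymus was among the samples. Each of 7 antibodies (against EZH2, SUZ12, H3K27me3, N-MYC, p300, H3K27ac and H3K4me3) gave 1 ChIPmentation library and 1 deposited peak list, and 2 further samples were inputs, which are not used here. The promoter that drives MYCN, the number of animals and any pooling of them are not given in the sources used here.

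Glucose enters a cell through transporters of the Slc2a family, is trapped as glucose 6-phosphate by a hexokinase, and is split into pyruvate along the glycolytic chain, in which Gapdh and Pkm act. Lactate dehydrogenase turns pyruvate into lactate, which leaves through monocarboxylate transporters such as Slc16a1, while Slc1a5 brings in glutamine as a second source of carbon and nitrogen. Activated T cells and many lymphomas take up glucose and release lactate at a high rate, and several of these genes, Ldha among them, are textbook targets of MYC-family factors, which bind the E-box CACGTG together with MAX. EZH2 and SUZ12 belong to Polycomb repressive complex 2, which deposits H3K27me3 at silent genes. H3K4me3 marks active promoters, H3K27ac active promoters and enhancers, and p300 is an acetyltransferase that makes H3K27ac.

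A gene was read at every annotated start with 1 kb to either side, and over its whole body. A call is a deposited peak that overlaps by at least 1 bp, and its strength is the authors' fold enrichment of the peak over background. The authors' cut-off lay near a q-value of 0.01. No read depth is given, so the depth behind each value is unknown and a missing peak means only that none was called. With 1 library per antibody there is no replicate check and no p-value, and every comparison below describes these 7 lists. Of the 9 genes, 7 had entries with strand in the RefSeq promoter table. Slc2a3 and Slc1a5 had none, so both bounds of these genes were read, and distances are counted into the gene from the bound that carried peaks.

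The promoter sequences below, from RefSeq on GRCm38.p6, are shown for Ldha and Slc16a1, whose N-MYC peaks were the strongest of the 9 genes, for Slc2a1, with a peak of middle strength at its start, and for Hk2, whose N-MYC summit lay farthest from a start. Each run gives the 250 bases before an annotated start, 5′ to 3′ on the gene's strand. Capitals mark ACGTG on either strand, so that a run of 6 capitals is a CACGTG E-box, which reads the same on both strands and holds ACGTG on each.
Ldha, chr7:46845554-46845803, plus strand: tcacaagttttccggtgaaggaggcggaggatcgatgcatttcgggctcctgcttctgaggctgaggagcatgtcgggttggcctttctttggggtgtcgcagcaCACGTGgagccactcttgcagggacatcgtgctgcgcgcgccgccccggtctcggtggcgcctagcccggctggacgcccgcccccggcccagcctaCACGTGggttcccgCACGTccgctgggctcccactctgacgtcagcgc
Slc16a1, chr3:104638414-104638663, plus strand: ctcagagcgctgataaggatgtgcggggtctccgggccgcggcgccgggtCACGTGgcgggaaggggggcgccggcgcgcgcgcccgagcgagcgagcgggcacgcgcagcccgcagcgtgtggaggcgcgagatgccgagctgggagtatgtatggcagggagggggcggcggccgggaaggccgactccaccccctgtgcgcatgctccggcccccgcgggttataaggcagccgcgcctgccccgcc
Slc2a1, chr4:119108495-119108744, plus strand: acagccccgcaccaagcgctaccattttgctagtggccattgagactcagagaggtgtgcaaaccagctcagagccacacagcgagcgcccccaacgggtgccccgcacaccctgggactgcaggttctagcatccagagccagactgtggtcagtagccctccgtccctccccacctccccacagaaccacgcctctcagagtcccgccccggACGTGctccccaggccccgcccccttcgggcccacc
Hk2, chr6:82774455-82774704, minus strand: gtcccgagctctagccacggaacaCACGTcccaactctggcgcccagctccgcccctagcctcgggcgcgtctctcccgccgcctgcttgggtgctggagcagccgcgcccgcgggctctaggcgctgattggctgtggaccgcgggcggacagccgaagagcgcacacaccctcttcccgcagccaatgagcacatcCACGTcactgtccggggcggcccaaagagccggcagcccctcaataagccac
Ldha holds 2 E-boxes and Slc16a1 holds 1, while Slc2a1 and Hk2 hold the shorter core alone.

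All 9 genes carried N-MYC, p300, H3K27ac and H3K4me3 peaks at a start, and 8 of them also carried EZH2, Hk2 being the exception. None had a SUZ12 or an H3K27me3 peak at a start. Over all protein-coding genes, a start carried N-MYC in 33.4%, p300 in 39.8%, H3K27ac in 52.2%, H3K4me3 in 51.6%, EZH2 in 46.5%, SUZ12 in 14.1% and H3K27me3 in 26.5% of genes, and either Polycomb feature in 26.6%. The nearer background is the 11289 genes with H3K4me3 at a start, since all 9 had it. Of those genes 64.3% carried N-MYC, 76.6% p300, 93.3% H3K27ac, 74.1% EZH2, 10.6% SUZ12 and 16.3% H3K27me3. The 4 active lists were called together at 30.9% of all genes. The full pattern of EZH2 with the 4 active lists and without SUZ12 or H3K27me3, found at 8 of the 9 genes, was present at 24.6% of all genes and at 47.8% of genes with H3K4me3. The pattern is thus a common one at marked promoters, and the 9 genes differed mainly in the strength and position of their peaks.

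**Figure D1:**
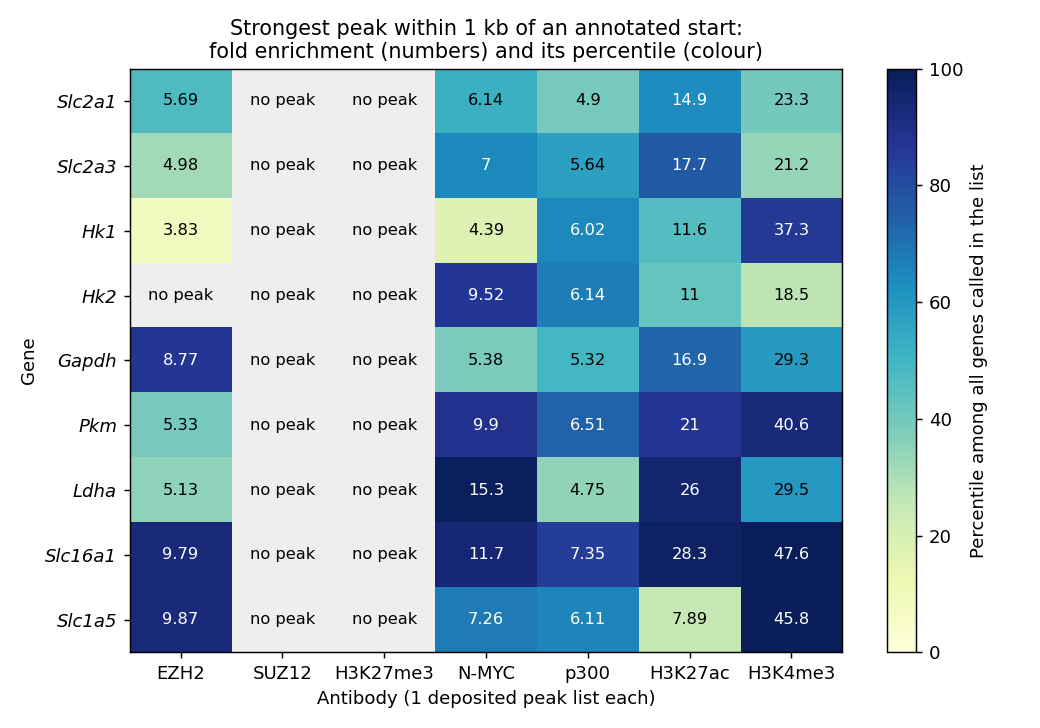
Fold enrichment of the strongest peak within 1 kb of an annotated start (number in each cell) for 9 genes (rows) and 7 antibodies (columns), 1 list each. Colour gives the percentile among all protein-coding genes called in the same list and grey cells had no peak. The SUZ12 and H3K27me3 columns are empty, and N-MYC runs from 4.39 at Hk1 to 15.3 at Ldha.

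The strengths spread widely. The median fold enrichment over the genes called was 7.26 for N-MYC, against 6.01 over all genes called in that list, with 7 of 9 above the middle of the list. For H3K27ac it was 16.9 against 12.3, for p300 6.02 against 5.40, and for H3K4me3 29.5 against 26.5, each with 6 of 9 above the middle. EZH2 lay the other way, at 5.51 over the 8 genes called against 5.86, with 3 of 8 above the middle. The medians cover few genes, and single genes ranged from percentile 7.97 to 92.5 of the genes called for EZH2, from 17.8 to 98.8 for N-MYC and from 34.4 to 84.4 for p300.

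Slc2a1, which encodes the widely expressed glucose transporter GLUT1, lies on chromosome 4 from 119108745 to 119137330 on the plus strand. At its single start, fold enrichment was 6.14 for N-MYC, 4.90 for p300, 14.9 for H3K27ac, 23.3 for H3K4me3 and 5.69 for EZH2. These values sat near the middle of their lists, from percentile 39.3 for p300 to 63.6 for H3K27ac among the genes called. The N-MYC summit lay 14 bp after the start. A long non-coding RNA, Gm52706, starts 4 bp away on the other strand, so the peaks at this start cannot be assigned to either gene alone.

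Inside Slc2a1 a further site stood out. An H3K27ac peak 5623 bp wide, from 119123960 to 119129582, had its summit 18041 bp after the start and a fold enrichment of 16.1, slightly above the 14.9 of the promoter peak. Its width exceeded that of 98.8% of all H3K27ac peaks. An N-MYC peak of fold enrichment 5.28, from 119127271 to 119128115, lay within it, with its summit 19024 bp after the start. No EZH2, p300, H3K4me3, SUZ12 or H3K27me3 peak overlapped it. Of the 1522 N-MYC peaks off H3K4me3 in the whole list, 559 (36.7%) likewise had H3K27ac without p300. Another 7 H3K27ac peaks over this gene, away from the start, had fold enrichments from 3.23 to 3.97.

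Slc2a3 encodes GLUT3, a transporter with high affinity for glucose, and lies on chromosome 6 from 122727809 to 122802363. All its calls at a start were at the upper bound, where fold enrichment was 7.0 for N-MYC, 5.64 for p300, 17.7 for H3K27ac, 21.2 for H3K4me3 and 4.98 for EZH2. The lower bound had no peak in any list. The summits of H3K4me3, H3K27ac, EZH2, N-MYC and p300 lay 365, 471, 528, 626 and 917 bp inside that bound. Both transporters thus carried the same 5 lists, at similar strength for EZH2 and H3K4me3.

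The body of Slc2a3 carried further peaks. Only its bounds were read, so whether a start lies inside the gene near these peaks is unknown. An H3K4me3 peak of fold enrichment 12.7 and 1457 bp width lay 60206 bp inside the upper bound, with H3K27ac (5.36) over it. A narrow N-MYC peak (5.15, 205 bp) lay 62242 bp inside and overlapped no other list. Of the N-MYC peaks off H3K4me3, 269 (17.7%) also had no H3K27ac. A second group of H3K27ac peaks, the strongest at 6.62, lay between 37324 and 40463 bp inside the bound. An H3K4me3 peak of fold enrichment 6.98, 9179 bp inside the bound, lay within the pseudogene Gm4482, which overlaps this gene from 122791545 to 122793415.

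**Figure D2:**
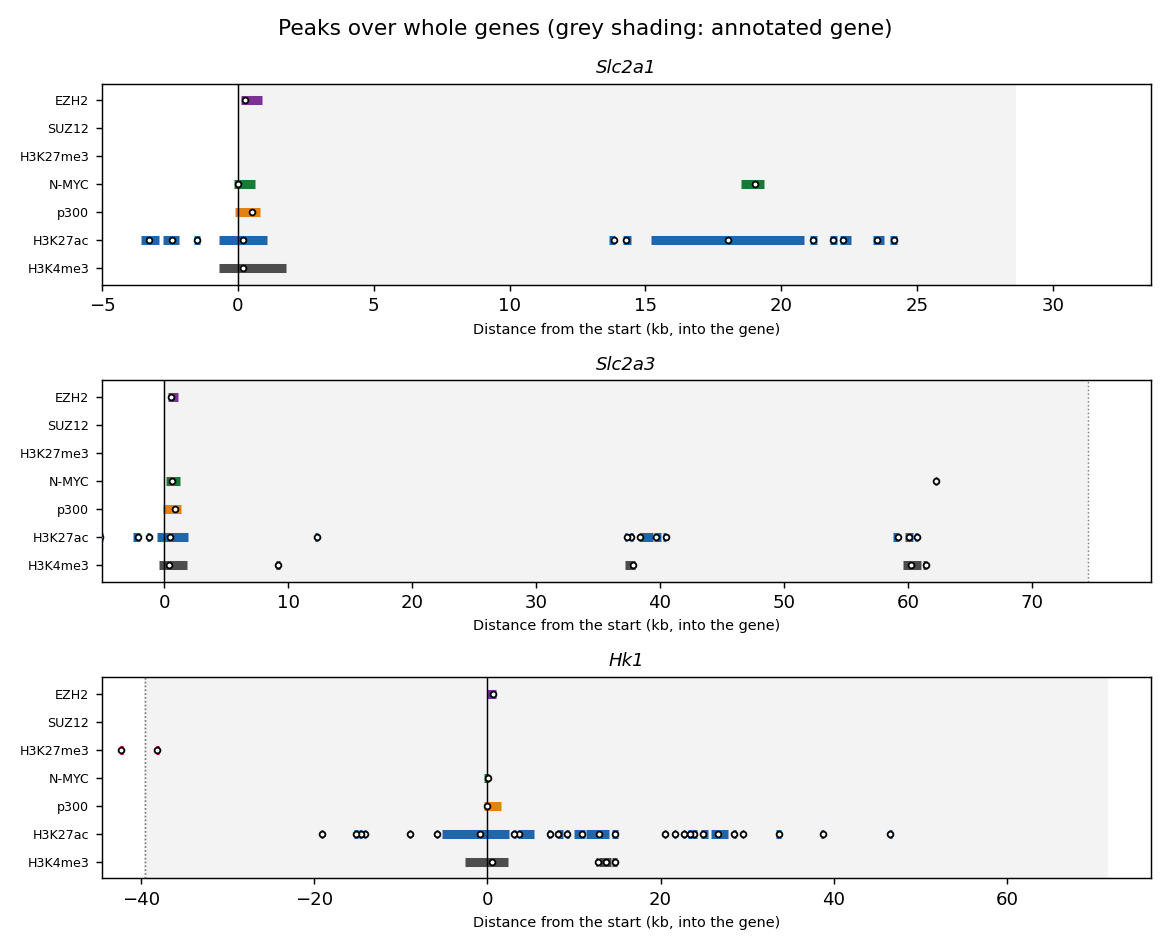
Peaks (bars) and summits (circles) of the 7 lists over Slc2a1, Slc2a3 and Hk1, by distance in kb from the start that carried the peaks, with the gene shaded in grey and other annotated starts or bounds dotted. The N-MYC peak inside the wide H3K27ac peak of Slc2a1 lies about 19 kb after the start, and the H3K27ac peaks of Hk1 lie to both sides of the marked start.

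The hexokinases differed most in EZH2, N-MYC and H3K4me3, and their p300 and H3K27ac values were close. Hk1, the hexokinase of most tissues, lies on chromosome 10 from 62268855 to 62379920 on the minus strand and has annotated starts at 62340421, 62379908 and 62379920. All calls were at 62340421, which lies 39487 bp inside the gene from the next start, and the other starts had no peak within 1 kb in any list. Fold enrichment there was 37.3 for H3K4me3, at percentile 85.6 of the genes called, but only 4.39 for N-MYC (percentile 17.8) and 3.83 for EZH2 (percentile 7.97), a call that was lost at a q-value of at most 1e-05. p300 (6.02) and H3K27ac (11.6) were near the middle. The N-MYC and p300 summits lay 37 and 8 bp after the start, and the EZH2 summit lay 641 bp after it. The antisense RNA Hk1os starts 187 bp away, and the peaks cannot be divided between them.

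Hk1 also had the most H3K27ac peaks of the 9 genes. The peak at the start was 7650 bp wide, wider than 99.5% of the list, and 26 more lay over the gene away from the starts, with fold enrichments from 2.48 to 8.81. This gene is also the longest of the 9, at 111066 bp. Its EZH2, N-MYC and p300 calls were all at the start. A single H3K27me3 peak (4.05, 265 bp wide) lay over the gene, 1255 bp from the outer start at 62379908 and so just outside the window. It was the 1 Polycomb call over the body of any of the 9 genes, against 30.2% of all genes with H3K27me3 and 14.9% with SUZ12 over the body.

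Hk2, the inducible hexokinase of growing tissue and tumours, lies on chromosome 6 from 82725025 to 82774454 on the minus strand. It had N-MYC peaks on both sides of its start, a stronger one (9.52) with its summit 773 bp into the gene and a weaker one (4.83) with its summit 188 bp before it. The stronger peak stood at percentile 86.6 of the genes called. H3K4me3 was the lowest of the 9 genes, at 18.5 (percentile 26.6), and its summit lay 4 bp from that of the stronger N-MYC peak. p300 (6.14) and H3K27ac (11.0) were called as well, the p300 summit 80 bp from the same N-MYC summit. An H3K27me3 peak of fold enrichment 3.79 lay 1675 bp from the start, outside the window and before the gene.

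No EZH2 peak was called at Hk2 or over its body, and the nearest EZH2 peak lay 258503 bp from the start. Of all genes, 4.24% carried the 4 active lists without EZH2 or a Polycomb feature, and among the 6319 genes with the 4 active lists and no Polycomb feature EZH2 was called at 85.3%. H3K4me3 strength moved with this. Among the 1030 genes with an H3K4me3 fold enrichment within 2 of that of Hk2, EZH2 was called at 49.5%, and among the 483 of these with the 4 active lists and no Polycomb feature at 56.3%. Missing EZH2 at this level of H3K4me3 was therefore common, and its part in the result at Hk2 was not tested.

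**Figure D3:**
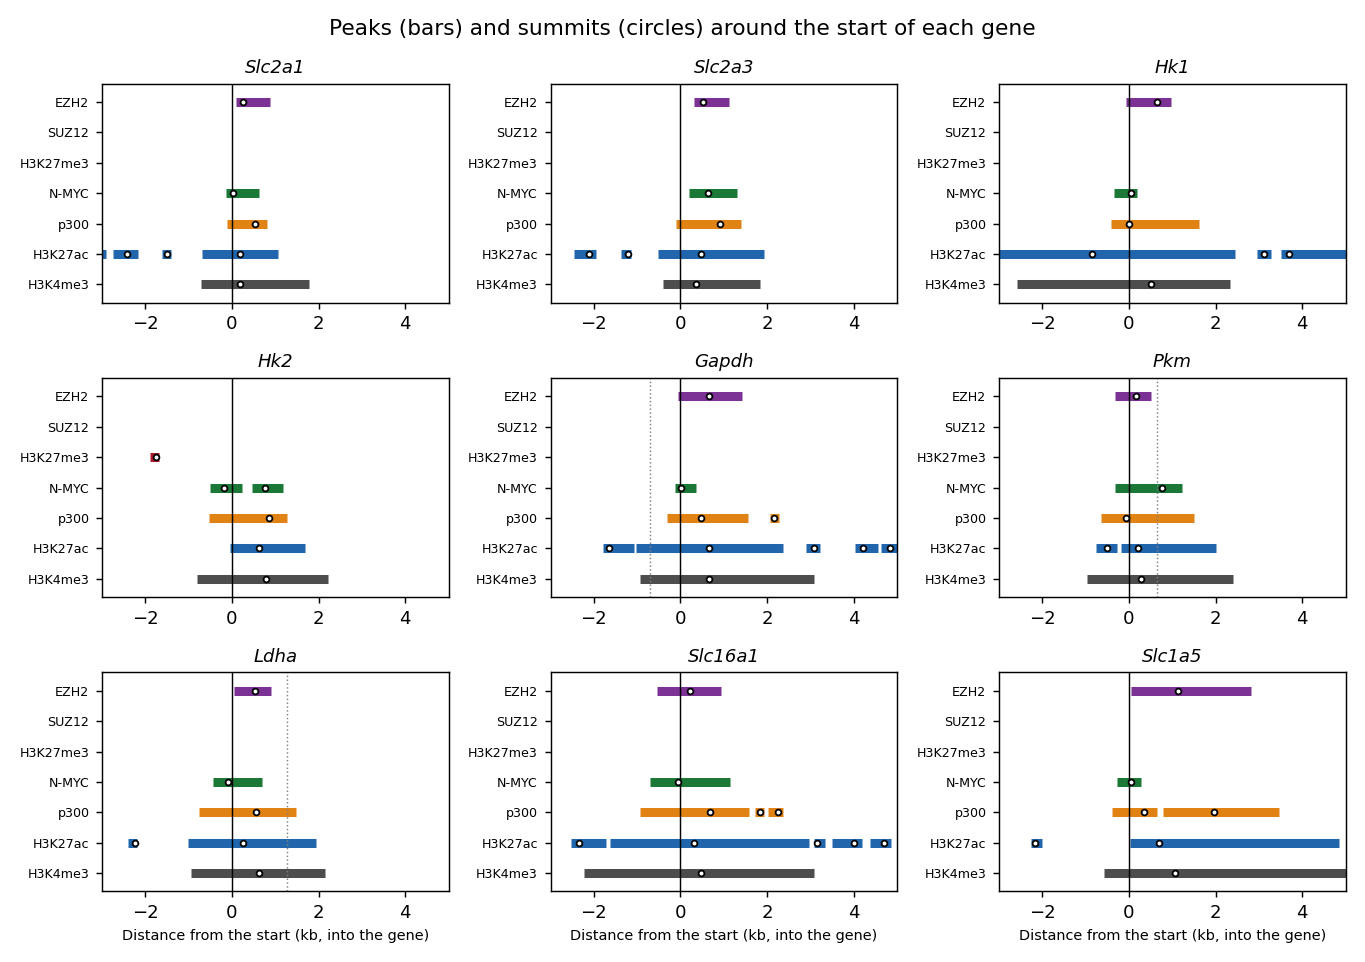
Peaks (bars) and summits (circles) of the 7 lists around the start of each of the 9 genes, by distance in kb with positive values into the gene. Dotted lines are other annotated starts. Hk2 has N-MYC peaks on either side of the start and no EZH2, and the EZH2 bars of the other genes lie mostly on the gene side of the start.

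Gapdh, which oxidises glyceraldehyde 3-phosphate, lies on chromosome 6 from 125161852 to 125166467 on the minus strand, with starts at 125165773 and 125166467. Its EZH2 peak was among the strongest of the 9 genes, at 8.77 (percentile 87.0), and its N-MYC peak among the weakest, at 5.38 (percentile 38.4). H3K4me3 was 29.3, H3K27ac 16.9 and p300 5.32. The N-MYC summit lay 8 bp after the inner start. The EZH2 summit lay 648 bp after it, 17 bp from the H3K4me3 summit.

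Pkm encodes the pyruvate kinase of most tissues, with the splice forms PKM1 and PKM2, and lies on chromosome 9 from 59656576 to 59679372 on the plus strand. Its starts at 59656576 and 59657227 lie 651 bp apart and share their peaks. N-MYC was strong, at 9.90 (percentile 88.4), in a peak 1552 bp wide whose summit lay 120 bp after the second start. H3K4me3 (40.6, percentile 92.9) and H3K27ac (21.0, percentile 87.0) were strong too. EZH2 was not, at 5.33 and percentile 39.4. The Gm51708 RNA starts 670 bp before the first start on the other strand. No peak of the 7 lists lay over Pkm outside the windows around its starts.

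Ldha, whose subunit favours the step from pyruvate to lactate, lies on chromosome 7 from 46842274 to 46855627 on the plus strand, with starts at 46842274, 46845804 and 46847082. It had the strongest N-MYC peak of the 9 genes, at 15.3, which ranked 77 among the 9798 N-MYC peaks of the list. Its H3K27ac peak, at 26.0, stood at percentile 95.3 of the genes called. p300 (4.75, percentile 34.4) and EZH2 (5.13, percentile 34.8) were below the middle, and H3K4me3 was 29.5. The outermost start had H3K27ac peaks of 4.56 and 4.09 and nothing else.

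The N-MYC summit of Ldha lay 95 bp before the start at 46845804, between the E-boxes printed above. Those begin 145 and 48 bp before the start, and their centres lie 47 and 50 bp from the summit. The EZH2 peak began 45 bp after the start and overlapped the N-MYC peak, which ended at 46846508. Only the summits were apart: that of EZH2 lay 637 bp from that of N-MYC and 88 bp from that of H3K4me3.

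Slc16a1 encodes MCT1, which moves lactate and pyruvate with a proton, and lies on chromosome 3 from 104638664 to 104658462 on the plus strand. It was high in all 5 lists: H3K4me3 47.6, H3K27ac 28.3, N-MYC 11.7, EZH2 9.79 and p300 7.35, at percentiles from 84.4 for p300 to 99.5 for H3K4me3. No other of the 9 genes was above percentile 80 in all 5. Its H3K4me3 peak ranked 52 among 16899 and its H3K27ac peak 271 among 87072. The N-MYC summit lay 56 bp before the start and 141 bp from the centre of the E-box that begins 200 bp before the start. The EZH2 peak spanned the start, from 104638123 to 104639593, with its summit 214 bp into the gene. Small p300 peaks (3.53 and 4.15) followed 1832 and 2247 bp after the start.

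Slc1a5 encodes ASCT2, an exchanger of neutral amino acids that carries glutamine, and lies on chromosome 7 from 16781334 to 16798274. Calls were at its lower bound. It combined the highest EZH2 of the 9 genes, 9.87, and an H3K4me3 peak of 45.8 with the lowest H3K27ac, 7.89. That H3K27ac peak was wide but low, at 4812 bp and percentile 25.2 of the genes called, and the H3K4me3 peak was 5703 bp wide. N-MYC (7.26) and p300 (6.11) were above the middle, at percentiles 67.6 and 65.6. The N-MYC summit lay 36 bp inside the bound and the EZH2 summit 1141 bp inside it, 1105 bp apart, the largest such distance of the 8 genes.

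The peaks were next read against genes of like H3K4me3. Genes with H3K4me3 and without SUZ12 or H3K27me3 at a start were divided into 10 groups of rising H3K4me3 fold enrichment, in which EZH2 was called at 8.25% of genes in the lowest and 98.4% in the highest. In the group that held Hk1, EZH2 was called at 928 of 943 genes with a median of 6.89, and the 3.83 of Hk1 stood at percentile 1.08. Pkm was also low in its group, at percentile 3.23 against a median of 8.21. Slc16a1 and Slc1a5, in the same group as Pkm, stood at percentiles 86.7 and 87.5. Gapdh was high, at percentile 97.8 against a median of 5.28, while Ldha in the same group stood at 43.2.

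Within these groups the other lists gave a different order. Ldha was at percentile 98.7 for N-MYC and 96.2 for H3K27ac, and Gapdh at 36.6 for N-MYC. The H3K27ac peak of Slc1a5 stood at percentile 1.70 against a median of 19.3. Hk2 was at percentile 91.1 for N-MYC in a group in which 34.4% of 942 genes had EZH2. Slc2a1 and Slc2a3 lay between percentiles 45.0 and 81.0 in all 4 lists. Hk1 and Gapdh, which act on the same pathway and carried the same 5 lists, thus stood at opposite ends of their groups for EZH2.

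**Figure D4:**
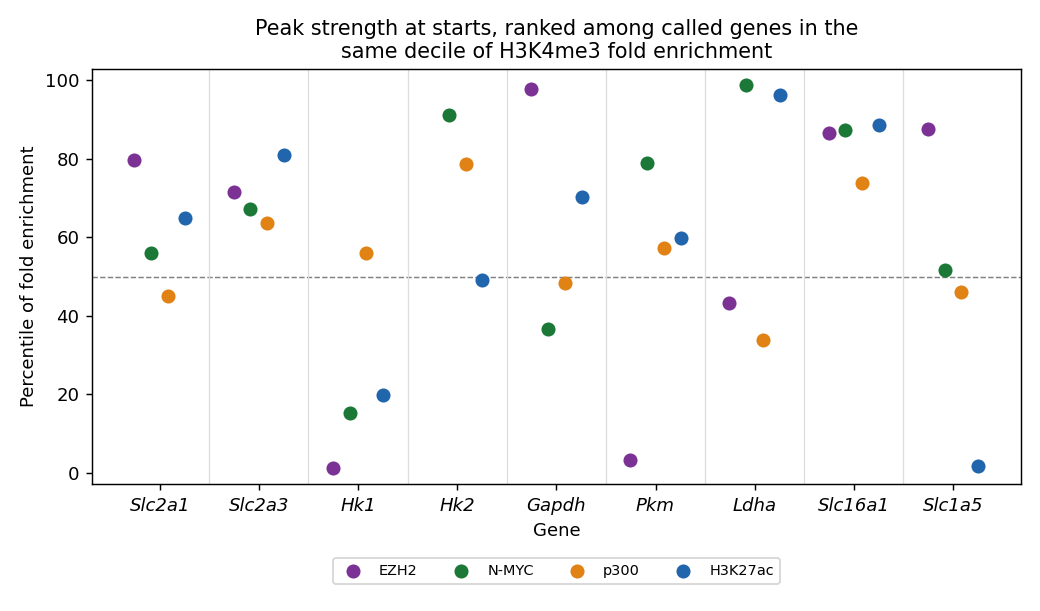
Percentile of fold enrichment at a start (vertical axis, percent) for each of the 9 genes, ranked among called genes without Polycomb features in the same decile of H3K4me3 fold enrichment, for 4 antibodies with 1 list each. The dashed line marks the middle. For EZH2, Hk1 and Pkm lie under percentile 5 and Gapdh above 95, and Hk2 has no EZH2 point.

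The positions of the summits showed an order that the strengths did not. Over the 8 genes with EZH2, the median distance between its strongest summit at a start and that of H3K4me3 was 103.5 bp, with a range of 17 to 266 bp. To H3K27ac the median was 92 bp (range 8 to 1494 bp), to p300 330 bp (20 to 814 bp) and to N-MYC 607.5 bp (98 to 1105 bp). N-MYC summits lay within 100 bp of an annotated start or bound at 6 of 9 genes: Gapdh, Slc2a1, Slc1a5, Hk1, Slc16a1 and Ldha. Among all 7316 genes with N-MYC at a start the share was 42.9%. EZH2 summits lay on the gene side of the nearest start at all 8 genes, from 160 bp at Pkm to 1141 bp at Slc1a5, and H3K4me3 summits did so at all 9, from 190 bp at Slc2a1 to 1063 bp at Slc1a5. Both are common positions, found at 79.4% of all genes with EZH2 and 83.4% of those with H3K4me3 at a start.

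Motifs were searched on both strands in the 300 bases of each RefSeq promoter, 250 before and 50 from the start on, for the 7 genes and 10 promoters in the table. CACGTG was found at Ldha and Slc16a1 and at none of the other 5 genes, in 2 of the 10 promoters, against 7.84% of 21263 promoters of protein-coding genes and 12.2% of those of genes with an N-MYC peak at a start. The variant CACGCG was found at Ldha, Slc16a1 and Hk1, in 4 of the 10 promoters, against 12.1% of all promoters and 21.9% of those of genes with N-MYC. The core ACGTG, which every CACGTG contains, was found in 7 of the 10 promoters, 1 for each gene, against 20.9% and 28.8%. GGGCGG, the GC box, was found in 5 of the 10, at Hk2, Slc2a1, Pkm, Ldha and Slc16a1, against 46.2% and 67.1%, so it was no more frequent here than in promoters of genes with N-MYC. TATAAA was found at Slc2a1, 28 bp after its start, and at none of the other 6 genes, against 12.6% of promoters and 6.12% of those of genes with N-MYC.

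The genes with a CACGTG in this window had the highest N-MYC values among the 7, 15.3 at Ldha and 11.7 at Slc16a1, while Pkm (9.90) and Hk2 (9.52) came next without one. The stronger N-MYC summit of Hk2 and the summit of Pkm lie outside the windows searched. A match is a description of the letters and not a site, and these are 7 genes.

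The rest of the pathway was read from a list of 72 other genes of glucose, lactate, pyruvate and glutamine use. Of these, 37 carried EZH2 at a start, 34 N-MYC, 33 p300, 52 H3K27ac, 50 H3K4me3, 20 H3K27me3 and 6 SUZ12. As shares, 51.4% carried EZH2, 47.2% N-MYC and 45.8% p300, against 46.5%, 33.4% and 39.8% of all genes. H3K27ac was at 72.2% and H3K4me3 at 69.4%, against 52.2% and 51.6%. H3K27me3, at 27.8%, was close to the 26.5% of all genes, and SUZ12, at 8.33%, was below their 14.1%. Median fold enrichment of the called genes was 5.77 for EZH2 and 6.12 for N-MYC, near the 5.86 and 6.01 of all called genes. The full active pattern with EZH2 and without a Polycomb feature was present at 24 of the 72, against 24.6% of all genes. All 24 are among the 50 with H3K4me3, and the share over all genes with H3K4me3 was 47.8%, so the pattern was about as common here.

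Relatives of the 9 genes were marked in several ways, given here at a start unless the body is named. None of the other 8 glucose transporters had N-MYC or p300 at a start, against 33.4% and 39.8% of all genes. Slc2a2, the transporter of liver and pancreas, had H3K27me3 (4.69) alone, and Slc2a5 (3.97) and Slc2a12 (6.39) likewise. Over their bodies, Slc2a5 also had SUZ12 (4.11) and Slc2a2 also had H3K27ac (4.34). Slc2a10 had H3K27me3 (13.1), SUZ12 (3.39) and EZH2 (3.07) at a start, and its EZH2 peak did not overlap the gene itself. Slc2a4, the insulin-responsive transporter of muscle and fat, had H3K4me3 (14.2) and H3K27ac (4.37), and Slc2a8 had EZH2 (3.69), H3K27ac (6.51) and H3K4me3 (22.2). Of the other hexokinases, Hk3 had H3K27ac (7.46) and Hkdc1 had no peak at a start. Over its body Hk3 had H3K27ac (13.1), H3K4me3 (4.73), p300 (3.90) and H3K27me3 (3.40), and Hkdc1 had H3K27me3 (7.36). Pklr, the pyruvate kinase of liver and red cells, had weak H3K4me3 (4.24) and H3K27ac (3.95) together with H3K27me3 (4.60). Gapdhs, the form of sperm, had H3K27ac (3.46) alone at a start. Over its body it had H3K4me3 (32.5), H3K27ac (15.5), N-MYC (7.27), p300 (5.89) and EZH2 (5.01).

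Ldhb, the other main subunit of lactate dehydrogenase, had H3K4me3 of 4.42 and H3K27ac of 6.51 with no N-MYC, p300 or EZH2, against 29.5 and 26.0 at Ldha, and the testis form Ldhc had no peak. Slc16a3, the exporter MCT4, had EZH2 (4.01), H3K27ac (10.4) and H3K4me3 (12.5). Bsg, the chaperone of MCT1, had N-MYC (7.20) with EZH2 (4.99). The related Emb had N-MYC (5.36) together with H3K27me3 (8.35), H3K27ac (8.35) and H3K4me3 (7.85). Slc16a7 (5.31) and Slc16a8 (10.1) had H3K27me3 alone at a start. Over its body Slc16a8 also had EZH2 (5.16) and SUZ12 (5.68).

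Among the 17 other glycolytic enzymes, 9 had N-MYC and 9 had EZH2 at a start, against 33.4% and 46.5% of all genes. N-MYC was strongest at Pfkp (15.8), a subunit of phosphofructokinase, and Eno3 (13.4), an enolase. Both carried EZH2 (6.42 and 6.70) and p300, and 15.8 slightly exceeded the value of Ldha. Of the 5 genes that set fructose 2,6-bisphosphate, Pfkfb3 (10.8) and Tigar (6.05) had N-MYC. Tigar also had H3K27me3 (4.55), p300 (4.65) and H3K4me3 (10.2). Its H3K27me3 peak did not overlap the gene itself. Among the 9 genes of pyruvate entry into mitochondria, 8 had N-MYC, against 33.4% of all genes. The highest values were at Pdk1 (8.0) and Pdk3 (5.59), kinases that inhibit pyruvate dehydrogenase. Pdk2 had H3K27me3 (7.01) beside N-MYC (4.82), EZH2 (4.38), H3K27ac (7.49) and H3K4me3 (10.4), and Pdk4 had H3K27me3 (9.54) alone. The N-MYC and EZH2 peaks counted for Pdk2 did not overlap the gene itself.

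Of the 16 other glutamine and amino acid genes, 10 had N-MYC, against 33.4% of all genes. N-MYC was strongest at Glud1 (11.8), glutamate dehydrogenase, and the transporter Slc38a2 (11.1). This group also held 4 of the 6 SUZ12 calls, against SUZ12 at 14.1% of all genes. Glul, glutamine synthetase, had SUZ12 (3.99) and H3K27me3 (7.67) together with N-MYC (4.14), p300 (3.30), H3K27ac (8.45), H3K4me3 (25.9) and EZH2 (4.99). Over its body the strongest H3K27me3 value was 5.12. Asns, asparagine synthetase, had SUZ12 (3.74), H3K27me3 (6.44), EZH2 (5.01), N-MYC (5.49), H3K27ac (3.86) and H3K4me3 (13.7). Gls2, the glutaminase of liver, had SUZ12 (4.76), H3K27me3 (9.20) and EZH2 (6.64) with H3K4me3 (26.1) and weak H3K27ac (2.68). That H3K4me3 peak lay outside the gene, over which the strongest H3K4me3 value was 8.92. Slc38a5 had SUZ12 (4.11), H3K27me3 (10.9) and EZH2 (4.44) with H3K4me3 (9.97) and H3K27ac (3.73). The SUZ12 peaks of Asns and Slc38a5 did not overlap the genes themselves. Gpt2 had H3K27me3 (9.86) with EZH2 (3.88) and H3K4me3 (20.5). Slc7a11, the cystine transporter, had H3K27me3 (12.2) alone. Of the 6 genes in this group with SUZ12 or H3K27me3 at a start, 5 thus also had H3K4me3 there. In the whole pathway list these were 9 of 20. Over all genes, 1839 of the 5804 with H3K27me3 at a start also had H3K4me3 at a start. Slc1a4, a close relative of Slc1a5, had N-MYC (7.51), p300 (4.65), H3K27ac (11.1) and H3K4me3 (19.0) without EZH2.

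Of the 6 regulators, Txnip (10.1), an inhibitor of glucose uptake, had the highest N-MYC, and Hif1a, the hypoxia factor, was next. Hif1a also carried EZH2 (7.51) and p300 (9.62). Mlxipl, the glucose-sensing factor ChREBP, had the highest H3K27me3 (22.4) and SUZ12 (7.22) of the 72 genes, with EZH2 of 8.34. Its relative Mlxip carried N-MYC (9.26) and EZH2 (8.41) with neither at a start, and had SUZ12 (3.99) and H3K27me3 (4.18) over its body. Arrdc4 had H3K27me3 (4.94) alone.

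**Figure D5:**
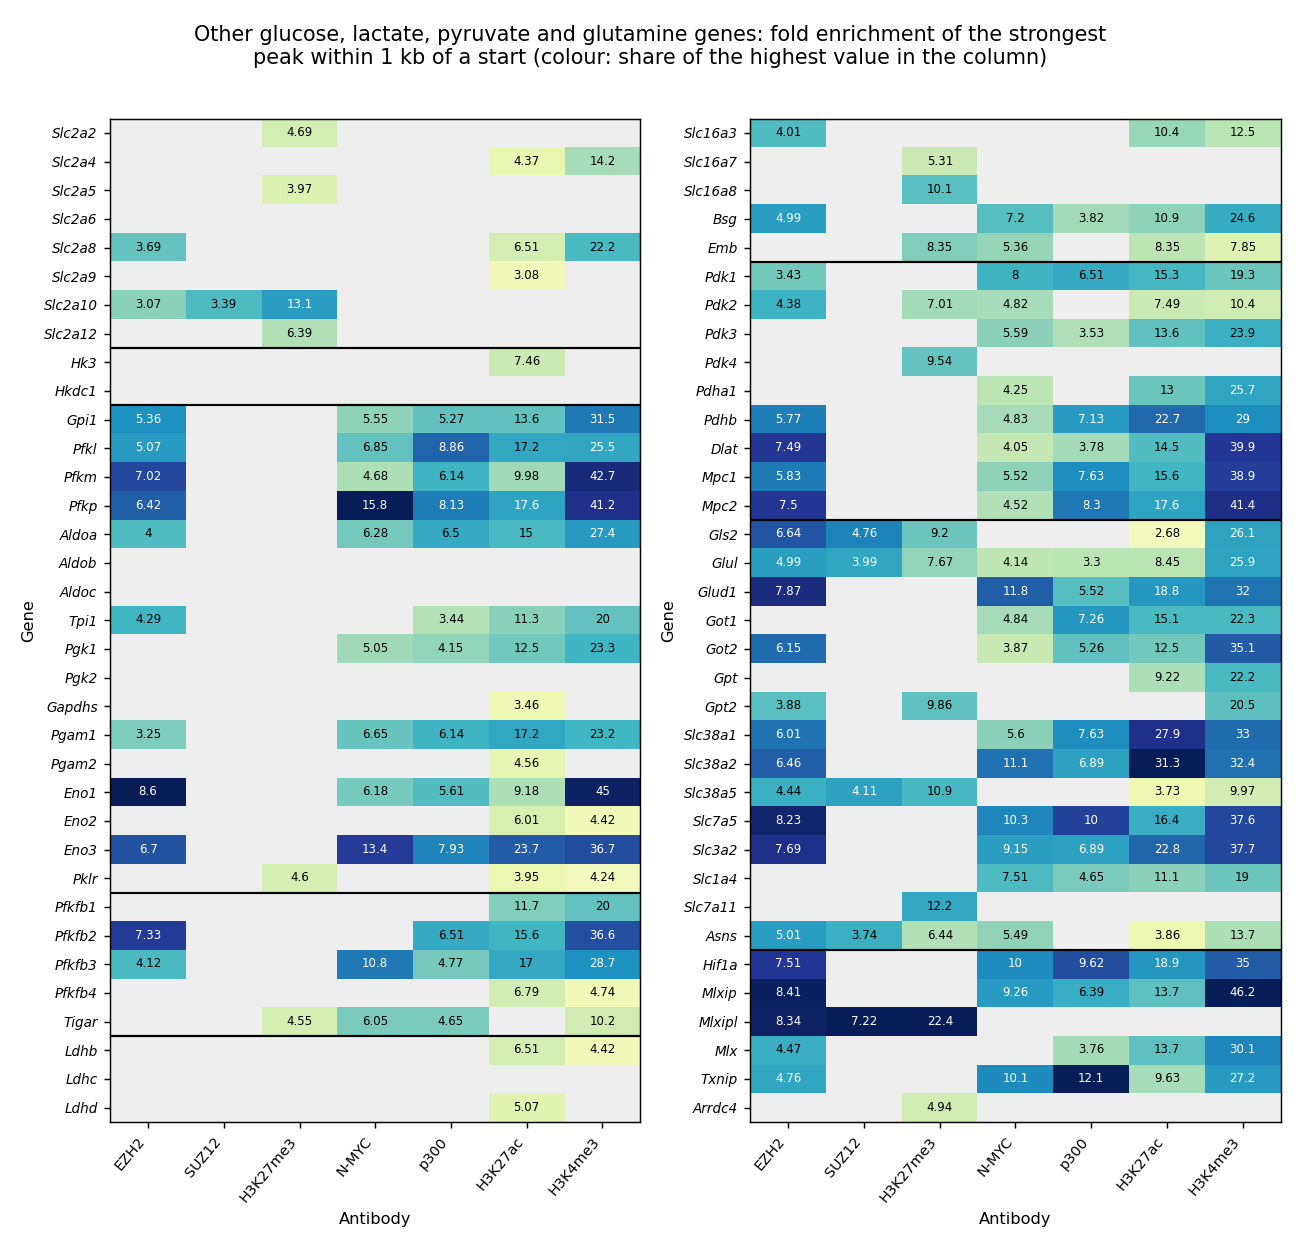
Fold enrichment of the strongest peak within 1 kb of a start (numbers) for 70 other genes of glucose, lactate, pyruvate and glutamine use (rows, black lines between groups) and 7 antibodies (columns), with colour as the share of the highest value in the column and grey for no peak. SUZ12 or H3K27me3 was called at 4 of 8 glucose transporters and 6 of 16 glutamine and amino acid genes, against 26.6% of all genes.

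Over whole genes, N-MYC, p300, H3K27ac and H3K4me3 were called at all 9 genes and EZH2 at 8, against 35.3%, 42.0%, 57.9%, 54.0% and 47.1% of all protein-coding genes. Away from the starts, N-MYC peaks were found over Slc2a1 and Slc2a3 alone, p300 over Slc16a1 and Gapdh alone, and EZH2 over none of the 9 genes. For Slc2a3 and Slc1a5 this means away from the bounds, as starts inside them are not given. H3K27ac peaks away from the starts were found over all but Pkm. The share of all genes with peaks of this kind was not computed, so these counts describe the 9 genes alone.

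As a check of the tissue, 10 of 13 T-cell markers had H3K4me3 at a start, the exceptions being Cd8a, Cd8b1 and Cd7. Neither the 5 myeloid nor the 5 stromal and endothelial markers had any, 2 of 5 B-cell markers and 1 of 5 thymic epithelial markers had it, and so did all 3 erythroid markers. N-MYC was called at 5 of the 13 T-cell markers, near its share over all genes, and at none of the others. Over all protein-coding genes the shares were 33.4% for N-MYC, 51.6% for H3K4me3 and 52.2% for H3K27ac. H3K27ac was less selective, at 11 of 13 T-cell, 4 of 5 myeloid, 3 of 5 B-cell, 2 of 5 thymic epithelial, 1 of 5 stromal and endothelial and 3 of 3 erythroid markers. The share of other cells in the chromatin was not tested.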

How the data were processed

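ChIPmentation libraries of MYCN-driven T-cell lymphoma from mouse thymus were profiled with 7 antibodies, 1 library each. Per the submitters' processing notes, the build was mm10 (GRCm38) and Bowtie2, SAMtools, MACS2, FastQC and deepTools were used. Roles, versions, filters and the use of the inputs are not given in the sources used here. The deposited peak lists give each peak's fold enrichment as a linear ratio over background. They also give −log10 p and q values, as deposited by the authors, and a score, deposited as 10 times −log10 q, that entered no result. Columns were identified from the layout and values.

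Calls were computed with Python 3.11.15, pandas 2.3.3 and numpy 2.4.6. A gene was called when a peak overlapped by at least 1 bp the 1 kb to either side of any start, or the gene body. A peak at a start can therefore lie outside the gene, and neighbours were read for the 9 genes alone. Starts were those of the RefSeq promoter table plus the outer 5′ bound. For 4395 of 21887 genes without strand, both bounds were read, which can count a gene's end as a start. Exons and introns were not used here. The strongest peak represented a gene. The calling step was tested on simulated data. Named genes were the 9 genes, their relatives, pathway genes with SUZ12 or H3K27me3 at a start, and the 2 of highest N-MYC per pathway group. Of the 72 pathway genes, 2 are counted but not reported singly here. Mlxip fell outside this rule and was chosen after its values were seen. The members and lists were chosen with earlier results of these data known. The comparison with genes of like H3K4me3, the motif shares by N-MYC call, the summit positions over all genes and the starts of the promoter table alone were added after seeing the data. Alternatives changed the window, the overlap, the threshold and the starts read.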

Additional observations from a re-analysis of the deposited data

How the results depend on the processing

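Of 154 counts recomputed under the alternatives, 149 stayed within 1.5 times of the reported count. With a window of 2 kb or 5 kb, 2 of the 9 genes (Hk1 and Hk2) had H3K27me3 at a start in place of 0. The shares of all genes were then 28.9% and 33.7%. At a fold enrichment of at least 4, 3 pathway genes in place of 6 had SUZ12, against 11.6% of all genes. With the 1 kb around starts left out of the gene body, 3 of the 9 genes had EZH2 over the body and 4 had N-MYC. The shares of all genes were 18.5% and 7.88%, and both readings include peaks that reach out of the windows. The EZH2 call of Hk1 was lost at a q-value of at most 1e-05 and at a fold enrichment of at least 4. Read at the outermost start alone, Hk1 lost all its calls and Ldha all but H3K27ac, whose value became 4.56. With summits required inside the window, Slc1a5 lost EZH2 and H3K4me3. Of the fold enrichments that still had a peak, 370 of 373 kept their value. Each is that of the strongest peak, so a stricter fold enrichment cut could only keep or lose it. The count of kept values is thus a weak measure of stability. A further 23 had no peak under the alternative. Of these, 10 were those of Slc2a3 and Slc1a5 with the starts of the promoter table alone, an alternative chosen after seeing the data. No paired analysis was possible because each antibody had 1 library, so no library could be left out. Depth is unknown, so an absent call can reflect depth.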
